A study of Mus musculus with 20 samples.

Results

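Advanced glycation end products (AGEs) are bound, sensed or kept low by a small set of proteins, and 6 genes for such proteins were followed here in RNA of mouse macrophages. AGEs form when glucose, or reactive dicarbonyls such as methylglyoxal that arise from its breakdown, attach to proteins without an enzyme. The receptor RAGE, encoded by Ager, binds AGEs and also protein ligands released by stressed or activated cells, such as HMGB1, and signals to NF-κB. Another group of AGE-binding proteins, galectin-3 (Lgals3), an oligosaccharyltransferase subunit (Ddost) and a protein kinase C substrate (Prkcsh), has been described as a receptor complex linked to AGE uptake. Ddost and Prkcsh are better known for their work on N-glycans in the endoplasmic reticulum. Glyoxalase I (Glo1) detoxifies methylglyoxal with glutathione, before AGEs are made.

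The 6 genes were chosen by symbol, for what their proteins do, and all 6 of 6 were found among the 14456 genes of the deposited table. Bone marrow-derived macrophages (BMDM) were grown with M-CSF from wild-type young adult C57BL/6 mice. The glucose experiment had a high glucose group at 25 mM (n = 4 libraries) and a normal glucose group at 5.5 mM, to which 19.5 mM of the sugar alcohol mannitol was added to even out osmolarity (n = 4), both for 24 h. In the exosome experiment, naive BMDM were exposed for 24 h to phosphate-buffered saline (PBS, n = 4), to exosomes from BMDM grown in normal glucose (BMDM-NG-exo, n = 4) or to exosomes from BMDM grown in high glucose (BMDM-HG-exo, n = 4). The labels put 1 library of each of these 3 groups on each of 4 dates. The study describes the exosomes of each sample as a preparation of its own. Whether recipient or glucose-treated cells came from separate mice or cultures is not given in the labels, so p-values measure the spread between these libraries, which may in part be technical.

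The values are normalized counts, that is, reads per gene divided by 1 size factor per library, from between 34016445 and 56310712 reads in genes. The PBS libraries held between 34016445 and 44693640 reads, and the BMDM-HG-exo libraries between 42356003 and 45905440. All 8 of 8 macrophage markers were listed, with a summed normalized count of 628400 to 878700, whereas none of 5 dendritic cell markers, 1 of 6 T cell markers, 1 of 5 B cell markers and 3 of 8 neutrophil markers were. Of 7 fibroblast markers 4 were listed, with a sum of at most 372.5, and 3 of 5 endothelial markers were, nearly all of it Vwf (mean 7200). In bulk RNA, a change in the number of cells of a type cannot be told apart from a change of RNA per cell.

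The stretches before the RefSeq starts of Lgals3 and of Ager are shown because Lgals3 was the gene of the 6 that differed between conditions and Ager is the receptor that gives the set its name. They are RefSeq sequences of build GRCm38.p6, plus strand. That of Ager ends at the last base before the RefSeq start of the gene, and that of Lgals3 at the last base before an exon annotated by GENCODE. The annotations place some starts differently: the RefSeq start of Lgals3 lies 6109 bases inside the gene as GENCODE draws it, because the GENCODE gene begins upstream, that of Glo1 lies 14212 bases inside, and those of Hmgb1 lie 131432 and 132873 bases inside. The stretch printed for Lgals3 is therefore within the GENCODE gene, ahead of the RefSeq start only. Capitals mark a CCAAT box (CCAAT, or ATTGG on the other strand).
Lgals3, chr14:47373610-47373812: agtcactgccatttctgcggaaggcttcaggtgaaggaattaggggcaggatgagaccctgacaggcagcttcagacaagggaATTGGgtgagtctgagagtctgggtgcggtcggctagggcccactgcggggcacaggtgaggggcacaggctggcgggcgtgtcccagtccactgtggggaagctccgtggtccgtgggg
Ager, chr17:34597600-34597849: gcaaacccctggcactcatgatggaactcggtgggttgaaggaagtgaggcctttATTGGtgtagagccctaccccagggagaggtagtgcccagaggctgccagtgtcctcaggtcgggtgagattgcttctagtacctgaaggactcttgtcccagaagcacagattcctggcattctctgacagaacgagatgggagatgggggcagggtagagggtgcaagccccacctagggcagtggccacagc

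In these stretches 63.1% of the bases of Lgals3 and 57.6% of those of Ager were G or C. A CCAAT box occurred in 33.8% of all 32851 RefSeq windows of 250 bases before a start, so that its presence in both is common. All 6 genes had a window, and Hmgb1 had 2. None of these 7 windows held the letters of an AP-1 site (TGANTCA, in 6.75% of all windows), of an antioxidant response element (TGACNNNGC, in 10.2%) or of a TATA box (TATAAA, in 12.4%). A GC box (GGGCGG, in 32.7% of all windows) was found in the windows of Lgals3, Ddost and Glo1 and in 1 of those of Hmgb1. The match of Lgals3 lies after the printed stretch. An E-box (CACGTG, in 6.02%) was found before Prkcsh and in the same window of Hmgb1. All searches were on both strands, no motif overlapped another in the printed stretches, and a match is a run of letters and not a bound site.

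The receptor itself was the faintest of the 6 genes and galectin-3 by far the strongest. Levels of different genes were compared as the normalized count per kilobase of annotated exon, averaged over the 20 libraries. On this scale Ager stood at 14.3, at percentile 11.4 of the listed genes, and Lgals3 at 34920, at percentile 99.8, which is 2450 times the level of Ager. Ddost stood at 1038, Prkcsh at 781.4 and Hmgb1 at 733.7 per kilobase, at percentiles between 86.2 and 90.6, and Glo1 at 53.9, at percentile 29.9. The rank of Glo1 depends on its long annotation, 12101 exon bases against 1858 to 5023 for the other 5 genes. Its mean normalized count was 652. Its longest transcript, at 9865 bases, is long as well, so neither length used here shows its rank at a shorter one. With the length of the longest transcript in place of all exons, Prkcsh (1499) and Hmgb1 (1299) lay above Ddost (1038), so the order of these 3 genes depends on the length used, while Lgals3 remained the highest and Ager the lowest. Ager also varied most: its normalized count had a coefficient of variation of 37.1% over the 20 libraries, against 5.41% to 8.29% for the other 5 genes.

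**Figure D1:**
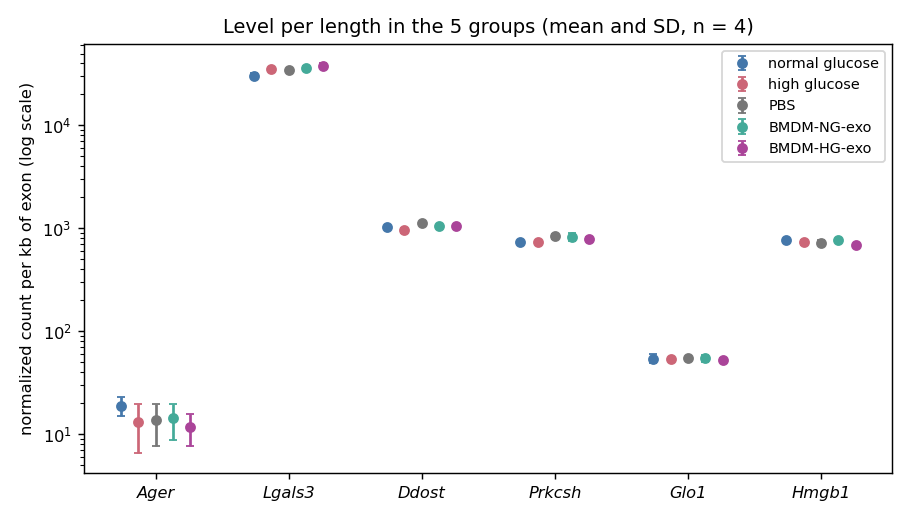
Normalized count per kilobase of annotated exon (log axis) of the 6 genes in the 5 groups. Points are means of 4 libraries and bars their SD. Lgals3 lies at 30510 or above and Ager at 18.9 or below in every group, and the groups of each gene lie close together compared with the distances between most genes.

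Across all comparisons, 1 of the 6 genes passed the test in 2 of the 5 comparisons, and it was Lgals3 in both. The groups were compared two-sided with limma, on a log2 scale after adding 1 to each normalized count. The p-values were adjusted by Benjamini-Hochberg over every gene whose mean was 10 or more, and a call needs an adjusted value under 0.05. In high against normal glucose 1 of 6 genes was called, while 13.3% of all 14425 genes tested were. With BMDM-HG-exo against PBS, 1 of 6 was called, against 5.40% of all 14413 genes. No member was called with BMDM-NG-exo against PBS (3.34% of all genes called), with BMDM-HG-exo against BMDM-NG-exo (0.0139%) or with BMDM-HG-exo against PBS and BMDM-NG-exo combined (0.201%). At an unadjusted limma p under 0.05 these 3 comparisons had 1, 1 and 2 of the 6 genes, beside 1947, 942 and 1511 of all 14413 genes. By the quasi-likelihood test of edgeR and by DESeq2 they also had 0 of the 6 genes called. The 4 exosome comparisons share libraries and are not independent of each other.

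**Figure D2:**
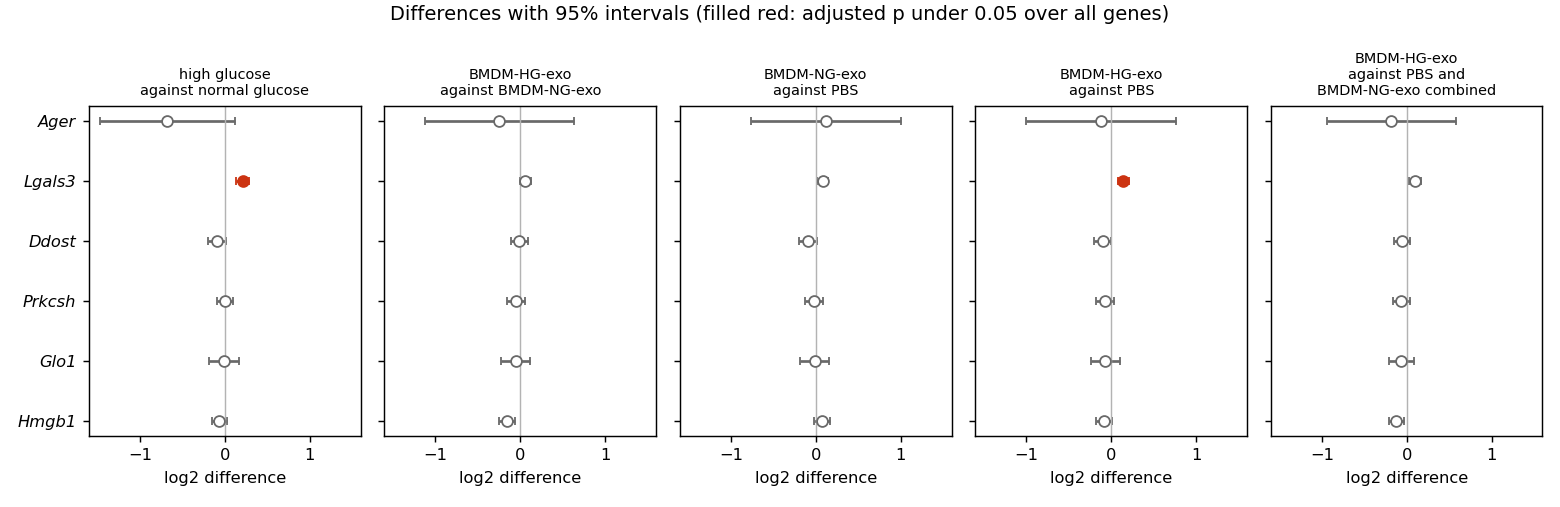
Log2 differences of the 6 genes in the 5 comparisons, with 95% intervals. Filled red points passed an adjusted p of 0.05 over all genes. Lgals3 is red in high against normal glucose (0.21) and in BMDM-HG-exo against PBS (0.14), and the intervals of Ager are several times wider than those of the other genes.

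Ager (ENSMUSG00000015452, chromosome 17, 34597862 to 34600936, plus strand, GRCm38) encodes RAGE, and 9 to 55 reads per library were assigned to it. Its normalized counts were 51.1, 42.7, 34.4 and 33.5 in normal glucose (mean 40.4 ± 8.20, SD, n = 4), and in the high glucose libraries 42.1, 34.95, 9.60 and 25.0 (27.9 ± 14.1). The groups overlapped, and the lowest high glucose library held 10 reads. The difference was -0.68 on the log2 scale (SE 0.39, 95% interval -1.47 to 0.12, limma adjusted p = 0.285). In percent the interval runs from -63.8% to 8.33%, so a difference was not detected with these read counts and this spread between libraries. Without the high glucose library of 10 reads, replicate 4, the difference was -0.25 (adjusted p = 0.735).

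In the recipient macrophages Ager was again the least certain of the genes. With PBS its normalized counts were 39.3, 31.0, 11.0 and 34.7 (29.0 ± 12.5), with BMDM-NG-exo 38.3, 24.4, 42.3 and 17.1 (30.5 ± 11.8), and with BMDM-HG-exo 24.2, 19.3, 37.3 and 19.2 (25.0 ± 8.52). All 3 groups overlapped. The log2 differences were 0.12 (95% interval -0.76 to 1.01) for BMDM-NG-exo and -0.12 (-1.0 to 0.76) for BMDM-HG-exo against PBS, with limma adjusted p-values of 0.949 and 0.929, and -0.24 (-1.13 to 0.64) from BMDM-NG-exo to BMDM-HG-exo, with 0.978. Leaving out 1 library moved these values over -0.27 (without PBS 3) to 0.36 (without BMDM-NG-exo 4), over -0.52 (without PBS 3) to 0.07 (without PBS 1) and over -0.48 (without BMDM-NG-exo 4) to -0.06 (without BMDM-NG-exo 3), with no call in any, so the sign of the first and second is not settled. Ordered by their means, BMDM-HG-exo was the lowest group, followed by high glucose, PBS, BMDM-NG-exo and normal glucose, and no neighbours in this order were separated by more than the larger of their SDs. The defining markers of alveolar type I cells, in which Ager is known to be high, were listed for 3 of 6, among them Hopx at a mean of 36.5 and Pdpn at 51.8, and Aqp5 was not among the listed genes. The summed normalized count of the listed 3, most of it Emp2, was between 799.2 and 1045 over the libraries.

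The neighbours of Ager on chromosome 17 were better measured. Pbx2, Agpat1, Rnf5, Ppt2, Gpsm3, Egfl8 and Notch4 had mean normalized counts from 76.5 (Egfl8) to 3157 (Gpsm3), all above Ager. None of the 8 genes of this stretch, Ager included, was called in any of the 5 comparisons. Over all genes 0.0139% to 13.3% were called in these comparisons. The median log2 difference of the stretch was 0.05 in high against normal glucose, beside -0.003 over all genes. The nearest to a call was Notch4, at 0.45 in high glucose (SE 0.16, limma adjusted p = 0.0529).

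Lgals3 (ENSMUSG00000050335, chromosome 14, 47367751 to 47386160, plus strand) encodes galectin-3, a galactoside-binding lectin that macrophages make in large amounts and that binds AGEs. It was higher in high glucose. The normal glucose libraries had normalized counts of 58863, 51789, 57648 and 58429 (mean 56680 ± 3301, SD, n = 4), and the high glucose libraries 63766, 63352, 68548 and 66238 (65480 ± 2412). Every high glucose library lay above every normal glucose library, as was the case in either direction for 16.3% of all genes. The difference was 0.21 on the log2 scale (SE 0.036, 95% interval 0.14 to 0.28), a rise of 15.6%, with a limma adjusted p of 6.5e-05. It was smaller than the median absolute difference of the called genes (0.26).

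Lgals3 also rose in recipients of BMDM-HG-exo. Its normalized counts were 66191, 62304, 63536 and 63748 with PBS (63940 ± 1627), 69301, 64526, 68652 and 68282 with BMDM-NG-exo (67690 ± 2151), and 74516, 72906, 68246 and 66737 with BMDM-HG-exo (70600 ± 3702). The BMDM-HG-exo libraries lay above all PBS libraries, a separation in either direction that 10% of all genes had, and overlapped the BMDM-NG-exo libraries. BMDM-HG-exo exceeded PBS by 0.14 (SE 0.033, 95% interval 0.08 to 0.21, limma adjusted p = 0.00412), which is 10.3%.

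The step from PBS to BMDM-NG-exo was in the same direction and did not pass. It measured 0.08 on the log2 scale (SE 0.033, 95% interval 0.02 to 0.15, limma adjusted p = 0.218), and that from BMDM-NG-exo to BMDM-HG-exo measured 0.06 (SE 0.033, -0.01 to 0.13, adjusted p = 0.815). Within dates, Lgals3 was higher than with PBS on 4 of 4 dates with BMDM-NG-exo (by 0.05 to 0.11) and on 4 of 4 with BMDM-HG-exo (by 0.07 to 0.23), and BMDM-HG-exo exceeded BMDM-NG-exo on 2 of 4. Against PBS and BMDM-NG-exo combined, BMDM-HG-exo was 0.10 higher (SE 0.034, adjusted p = 0.244). In order of the means, normal glucose was the lowest, then PBS, high glucose, BMDM-NG-exo and BMDM-HG-exo, and each neighbouring pair overlapped except normal glucose and PBS, which come from different experiments.

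Both calls of Lgals3 depended on sharing the spread between genes of like level. Without this trend the adjusted p was 0.0842 in glucose and 0.168 for BMDM-HG-exo against PBS, and quantile normalization lowered the glucose difference to 0.13 (adjusted p = 0.00293). Markers of macrophages moved with the same groups: their summed normalized count was 628400 to 702900 for normal and 808000 to 878700 for high glucose. It was 794500 to 841200 with PBS and lower with BMDM-HG-exo, 735100 to 759600, opposite to Lgals3. Most of this sum was the lysozyme Lyz2, which averaged 480700 ± 27000 in normal and 642800 ± 29680 in high glucose and was not called with BMDM-HG-exo against PBS (-0.09, adjusted p = 0.0678), while Mertk (-0.40) and Cd68 (-0.15, named after its value was seen) were called lower in high glucose. Their part in the result was not tested.

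**Figure D3:**
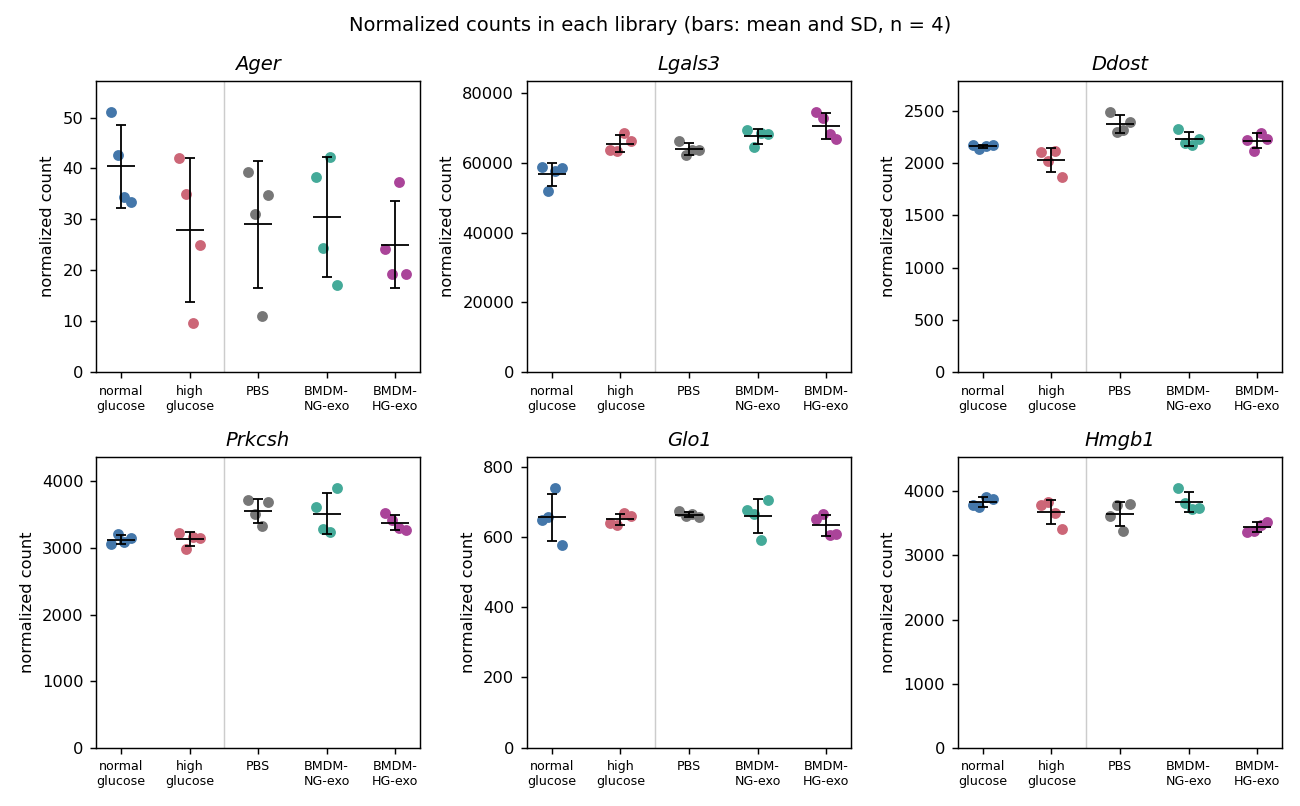
Normalized counts of the 6 genes in each of the 20 libraries, with axes from 0. Points are libraries, and bars give the mean and SD of 4. The vertical line parts the glucose from the exosome experiment, and the high glucose points of Lgals3 begin at 63352, above the normal glucose points, which end at 58863.

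Besides Lgals3, the galectins Lgals8 and Lgals4 were called in high glucose, both lower, and the galectin-3 ligand Lgals3bp was called higher. Of 9 genes on the galectin list 6 were tested, with 2 higher (Lgals3 included), 2 lower and 2 not called in high glucose. Over all genes 13.3% were called there. The median log2 difference of the list was -0.002, beside -0.003 over all genes. Lgals3bp, which encodes a secreted glycoprotein that galectin-3 binds, was 0.22 higher (SE 0.047, adjusted p = 0.000971), and DESeq2 gave an adjusted p of 0.0529. Lgals8 fell by 0.18 (SE 0.046, adjusted p = 0.00599). Lgals4, best known from gut epithelium, measured -1.52 (SE 0.37, adjusted p = 0.00439) from 61.9 ± 18.7 to 22.9 ± 12.6 normalized counts. Against PBS, Lgals3bp fell by 0.25 with BMDM-NG-exo (adjusted p = 0.000101) and by 0.29 with BMDM-HG-exo (adjusted p = 6.74e-06), and Lgals9, a galectin of immune regulation, fell by 0.20 with BMDM-HG-exo (adjusted p = 0.0108). The call of Lgals9 was lost without BMDM-HG-exo 2 (adjusted p = 0.0798).

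Ddost (ENSMUSG00000028757, chromosome 4, 138304730 to 138312628, plus strand) encodes a subunit of the oligosaccharyltransferase, which moves glycans onto new proteins. Its normalized counts in normal glucose were 2170, 2138, 2162 and 2168 (2160 ± 14.9), and in high glucose 2109, 2018, 2115 and 1866 (2027 ± 116). Every high glucose library was below every normal glucose library, a separation that 16.3% of all genes had in either direction, but the difference of -6.26% did not pass (-0.09, SE 0.053, 95% interval -0.20 to 0.01, limma adjusted p = 0.277).

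With the exosomes Ddost had the same pattern of small, uncalled differences. Its normalized counts were 2486, 2300, 2319 and 2397 with PBS (2375 ± 84.8), 2323, 2193, 2169 and 2231 with BMDM-NG-exo (2229 ± 67.7), and 2219, 2115, 2283 and 2233 with BMDM-HG-exo (2213 ± 70.6). The BMDM-HG-exo libraries lay below all PBS libraries (-0.10, SE 0.051, 95% interval -0.21 to 0.00, adjusted p = 0.304), a separation that 10% of all genes had in either direction. The BMDM-NG-exo libraries overlapped those with PBS (-0.09, adjusted p = 0.457), where 8.27% of all genes had groups that did not. Within dates, Ddost was lower than with PBS on 4 of 4 dates with either exosome. The exosomes differed from each other by -0.01 (95% interval -0.11 to 0.09), and by mean the order ran from high glucose through normal glucose, BMDM-HG-exo and BMDM-NG-exo to PBS, where each neighbouring pair overlapped except the 2 glucose groups.

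Besides Ddost, 11 genes of the oligosaccharyltransferase were tested, and 2 were called in high glucose. Of its 12 genes, all tested, 2 rose and 0 fell in high glucose, where 13.3% of all genes were called, with a median of 0.08 on the log2 scale. The catalytic subunit Stt3a measured -0.12 (adjusted p = 0.0757) and Krtcap2 -0.14 (adjusted p = 0.339), neither called and both named here after their values were seen. The 2 that rose were Rpn1, a core subunit (0.23, SE 0.038, adjusted p = 2.26e-05, called in every alternative), and Dad1, a small core subunit (0.26, SE 0.078, adjusted p = 0.0229). The call of Dad1 was lost without normal glucose 3, 5 or 6 or high glucose 4 or 6 (adjusted p from 0.0593 to 0.085). No gene of the list was called in the 4 exosome comparisons, where 0.0139% to 5.40% of all genes were.

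Prkcsh (ENSMUSG00000003402, chromosome 9, 22002806 to 22014222, plus strand) encodes the regulatory subunit of glucosidase II, the enzyme that trims glucose from glycans for the calnexin cycle. Its level differed little between the glucose groups. The normalized counts were 3056, 3206, 3094 and 3143 in normal glucose (3125 ± 64.7), against 3223, 2984, 3163 and 3151 in high glucose (3130 ± 103). The groups overlapped, and the difference was 0.00 with a 95% interval of -0.09 to 0.09. With exosomes they were 3716, 3505, 3328 and 3685 for PBS (3558 ± 180), 3609, 3291, 3242 and 3900 for BMDM-NG-exo (3510 ± 307), and 3527, 3415, 3305 and 3267 for BMDM-HG-exo (3379 ± 117).

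All 3 exosome groups overlapped for Prkcsh. BMDM-HG-exo was below PBS on 4 of 4 dates, by 0.01 to 0.17, which gave a log2 difference of -0.07 (95% interval -0.18 to 0.03, adjusted p = 0.52). The other 2 differences were -0.02 for BMDM-NG-exo against PBS and -0.05 between exosomes. Both glucose groups were below all 3 exosome groups by mean, a difference between experiments that was not tested. Of the 11 genes of the glucosidase II and calnexin cycle list, 2 rose in high glucose and 9 were not called, where 13.3% of all genes were called. The 2 were the chaperone Calr (0.16, adjusted p = 0.00409) and the folding sensor Uggt1 (0.13, adjusted p = 0.0141). The call of Uggt1 was lost without high glucose 6 (adjusted p = 0.0649). Calr fell by 0.15 with BMDM-HG-exo against PBS (SE 0.032, adjusted p = 0.00197), the 1 gene of the list called there, beside 5.40% of all genes.

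Glo1 (ENSMUSG00000024026, chromosome 17, 30584936 to 30626871, minus strand) encodes glyoxalase I. Its normalized counts in normal glucose were 647, 657, 739 and 577 (655 ± 66.3) and in high glucose 640, 633, 667 and 658 (650 ± 15.7), with a difference of -0.01 (95% interval -0.18 to 0.17, adjusted p = 0.976). With PBS they were 674, 658, 664 and 656 (663 ± 7.97), with BMDM-NG-exo 678, 664, 590 and 704 (659 ± 48.8), and with BMDM-HG-exo 652, 665, 606 and 609 (633 ± 30.0). The 5 groups overlapped their neighbours in order of the mean throughout, and their means spanned 633 to 663. The differences in the exosome comparisons were between -0.07 and -0.01 and none was called. The annotated gene overlaps others, of which none was among the listed genes.

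Other genes that defend against carbonyls were called in high glucose, more of them higher than lower. Of the 17 genes of the dicarbonyl and glycation defence list, 7 rose, 1 fell and 9 were not called, among them Glo1 and the glutathione synthetase Gss (0.14, adjusted p = 0.466, also named after its value was seen), with a median of 0.10. The 8 calls compare with 13.3% called over all genes. The largest rise was that of Gclm, the modifier subunit of the enzyme that limits glutathione synthesis, from 3093 ± 105 to 5857 ± 449 normalized counts (0.92, SE 0.048, adjusted p = 1.4e-16). Gsr, which recycles glutathione, rose by 0.55 (SE 0.053, adjusted p = 8.11e-10). Esd, which acts in the glutathione-dependent removal of formaldehyde, rose by 0.52 (SE 0.039, adjusted p = 2.11e-12). Gclc, the catalytic partner of Gclm, rose by 0.48 (SE 0.066, adjusted p = 1.33e-06).

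These 4 calls held in every alternative, as did the rise of Akr1b8. The call of Akr1b3 was lost without the trend and with a block on library number. That of Akr1a1 was lost in 9 of 18 alternatives, among them 5 left-out libraries (limma adjusted p from 0.075 to 0.172). Akr1b8, Akr1b3 and Akr1a1 are named here after their values were seen. The member of the list that fell, Dcxr, a carbonyl reductase named here after its value was seen, measured -0.27 (adjusted p = 0.0218) and lost its call without normal glucose 3 or 6 or high glucose 2 or 6 (adjusted p from 0.0651 to 0.114). None of the 17 genes was called in any of the 4 exosome comparisons, with medians from 0.00 to 0.05. Only 0.0139% to 5.40% of all genes were called in those comparisons.

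Hmgb1 (ENSMUSG00000066551, chromosome 5, 149046702 to 149184489, minus strand) encodes a nuclear DNA-binding protein that acts as a RAGE ligand once it leaves the cell. For Hmgb1 the normalized counts of the normal glucose libraries were 3793, 3752, 3914 and 3888 (3837 ± 76.7), against 3784, 3831, 3668 and 3409 with high glucose (3673 ± 189). The groups overlapped, and the difference was -0.06 (95% interval -0.16 to 0.03, adjusted p = 0.399).

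The lowest Hmgb1 values were those of BMDM-HG-exo recipients. The normalized counts were 3614, 3780, 3389 and 3796 with PBS (3645 ± 189), 4054, 3823, 3721 and 3743 with BMDM-NG-exo (3835 ± 152), and 3362, 3385, 3471 and 3530 with BMDM-HG-exo (3437 ± 77.7). All BMDM-HG-exo libraries lay below all BMDM-NG-exo libraries, as 3.86% of all genes did or did the reverse. The difference was -0.16 (SE 0.046, 95% interval -0.25 to -0.06), or -10.3%, with an unadjusted limma p of 0.0017 and an adjusted p of 0.409, so that it was not called. It had the same direction on 4 of 4 dates, from -0.27 to -0.08.

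Against PBS the differences of Hmgb1 were smaller and the groups overlapped. BMDM-NG-exo stood at 0.07 (95% interval -0.02 to 0.17) and BMDM-HG-exo at -0.08 (-0.18 to 0.01), and BMDM-HG-exo against both controls combined at -0.12 (SE 0.043, adjusted p = 0.26), where the groups overlapped and 1.17% of all genes had groups that did not. From lowest to highest the means ran from BMDM-HG-exo through PBS, high glucose and BMDM-NG-exo to normal glucose, and of these neighbours only BMDM-HG-exo and PBS differed by more than the larger of their SDs.

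**Figure D4:**
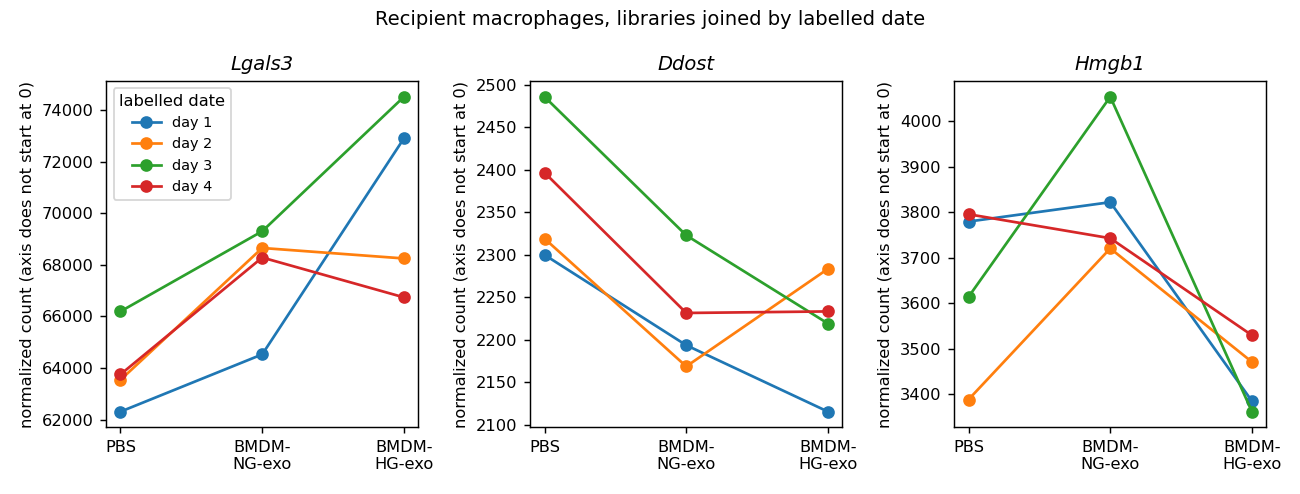
Normalized counts of Lgals3, Ddost and Hmgb1 in recipient macrophages, with the libraries of 1 labelled date joined by a line, on axes that do not start at 0. Lgals3 is higher and Ddost lower with either exosome than with PBS on each of 4 dates, and Hmgb1 is lower with BMDM-HG-exo than with BMDM-NG-exo on each.

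The reads of Hmgb1 are uncertain in 1 respect. Of 14 annotated loci named as its pseudogenes or related sequences 4 were listed, Hmgb1-ps5 at a mean of 635 normalized counts (17.2% of Hmgb1), Hmgb1-ps8 at 590 (16%), Hmgb1-rs16 at 99.2 and Hmgb1-ps6 at 41.3, and such copies can share reads with the gene. Hmgb1-ps5 was called in high glucose, at 0.36 (limma adjusted p = 0.00637), and no other copy was in any comparison. When the 4 copies were added to Hmgb1, a choice made after seeing the data, the step from BMDM-NG-exo to BMDM-HG-exo shrank to -0.08 (adjusted p = 0.815). Of the 10 high mobility group genes, 1 fell in high glucose, where 13.3% of all genes were called. It was the nucleosome-binding Hmgn2 (-0.45, SE 0.096, adjusted p = 0.00099). Hmga2, another chromatin protein, was higher with both exosomes than with PBS, by 0.38 (adjusted p = 0.000922) and 0.40 (adjusted p = 0.000268).

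The list of RAGE ligands includes S100 proteins, most of which bind calcium and some of which leave the cell. Whether each listed protein binds RAGE was not tested. Of the 12 genes on the list 11 were tested for a difference. In high glucose, where 13.3% of all genes were called, 3 of them rose and none fell. They were S100a4 (0.48, SE 0.074, adjusted p = 1.03e-05), S100a6 (0.32, SE 0.049, adjusted p = 9.76e-06) and S100a10 (0.27, SE 0.047, adjusted p = 6.98e-05), and the median of the list was -0.06. The classical ligands S100a8 and S100a9 had means of 26.1 and 59.0 normalized counts and were not called. With exosomes only Itgam, the integrin chain that RAGE can bind, was called, in comparisons that called 0.0139% to 5.40% of all genes. Against PBS it fell by 0.18 with BMDM-NG-exo (adjusted p = 0.0147) and by 0.38 with BMDM-HG-exo (adjusted p = 2.72e-07). Against PBS and BMDM-NG-exo combined it fell by 0.29 (adjusted p = 0.0125). The call with BMDM-NG-exo was lost without PBS 1 (adjusted p = 0.0608) or BMDM-NG-exo 1 (0.0986), and the combined one without BMDM-HG-exo 1 (0.187) or 2 (0.0609). Itgam is also a macrophage marker.

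Downstream of the receptor, 6 of the 15 genes of the RAGE signalling and shedding list rose in high glucose and none fell. All rose by little (median of the list 0.12), and 13.3% of all genes were called in this comparison. The rule for naming gave Adam17, a protease that sheds RAGE (0.16, adjusted p = 0.00136), the adaptor Myd88 (0.16, adjusted p = 0.0212), Stat3 (0.14, adjusted p = 0.0171) and the NF-κB subunit Nfkb1 (0.13, adjusted p = 0.0156). Diaph1, the formin that binds the tail of RAGE and which was added for that reason after its value was seen, rose by 0.13 (adjusted p = 0.0104). Cdc42, also named after its value was seen, rose by 0.12 (limma adjusted p = 0.0286). Its call was lost without normal glucose 1 or 3 or high glucose 2 or 6 (adjusted p from 0.0585 to 0.126). Quantile normalization ended this call and the 5 above, as did a fit without the trend and a block on library number. Leaving out high glucose 6 ended those of Myd88, Stat3, Nfkb1 and Diaph1 (adjusted p from 0.051 to 0.0731), high glucose 2 or normal glucose 6 those of Myd88, Stat3 and Nfkb1 (0.0522 to 0.0756), and normal glucose 3 that of Myd88 (0.0754). Against PBS, Nfkb1 fell by 0.15 with BMDM-NG-exo (adjusted p = 0.0214) and by 0.13 with BMDM-HG-exo (adjusted p = 0.0417), and Myd88 fell by 0.20 with BMDM-HG-exo (adjusted p = 0.0116). The call of Nfkb1 with BMDM-NG-exo was lost without library 2 or 3 of either group (adjusted p from 0.0521 to 0.0969), and that with BMDM-HG-exo without any 1 PBS library or without BMDM-HG-exo 1, 2 or 3 (0.0594 to 0.18). Myd88 lost its call without BMDM-HG-exo 3 (adjusted p = 0.0971).

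Among receptors that take HMGB1 outside RAGE, Tlr2 and Tlr9 were higher in high glucose and lower with exosomes. Of 8 tested, 3 rose and 1 fell in high glucose, where 13.3% of all genes were called. Tlr2, a Toll-like receptor for lipoproteins, rose by 0.43 (SE 0.049, adjusted p = 4.16e-08) and Tlr4, the receptor for endotoxin, by 0.28 (SE 0.042, adjusted p = 6.52e-06), both in every alternative. Tlr9, which senses DNA, rose by 0.24 (adjusted p = 0.00352), and Havcr2, an inhibitory receptor, fell by 0.24 (adjusted p = 0.0035). With exosomes, Tlr2 fell by 0.30 with BMDM-NG-exo (adjusted p = 0.000197) and by 0.44 with BMDM-HG-exo (adjusted p = 2.05e-07) against PBS, and Tlr9 by 0.28 (adjusted p = 0.00491) and 0.35 (adjusted p = 0.000203). No gene of the list was called between the exosomes, where 0.0139% of all genes were. The difference between the 2 experiments was not tested.

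Of 7 tested scavenger receptors that bind AGEs, 1 fell in high glucose, where 13.3% of all genes were called. It was Stab2 (-1.34, SE 0.33, adjusted p = 0.00463), at 61.9 ± 7.54 in normal and 25.3 ± 10.7 normalized counts in high glucose. With BMDM-HG-exo against PBS, Cd36, a receptor for oxidized lipoproteins, was 0.13 higher (adjusted p = 0.0465) and Stab1 fell by 0.12 (adjusted p = 0.0159). The call of Cd36 was lost without any 1 PBS library, BMDM-NG-exo 2 or BMDM-HG-exo 2 or 3 (adjusted p from 0.0524 to 0.238), and that of Stab1 without PBS 1 or 2 or BMDM-HG-exo 2 or 3 (0.0598 to 0.0802).

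**Figure D5:**
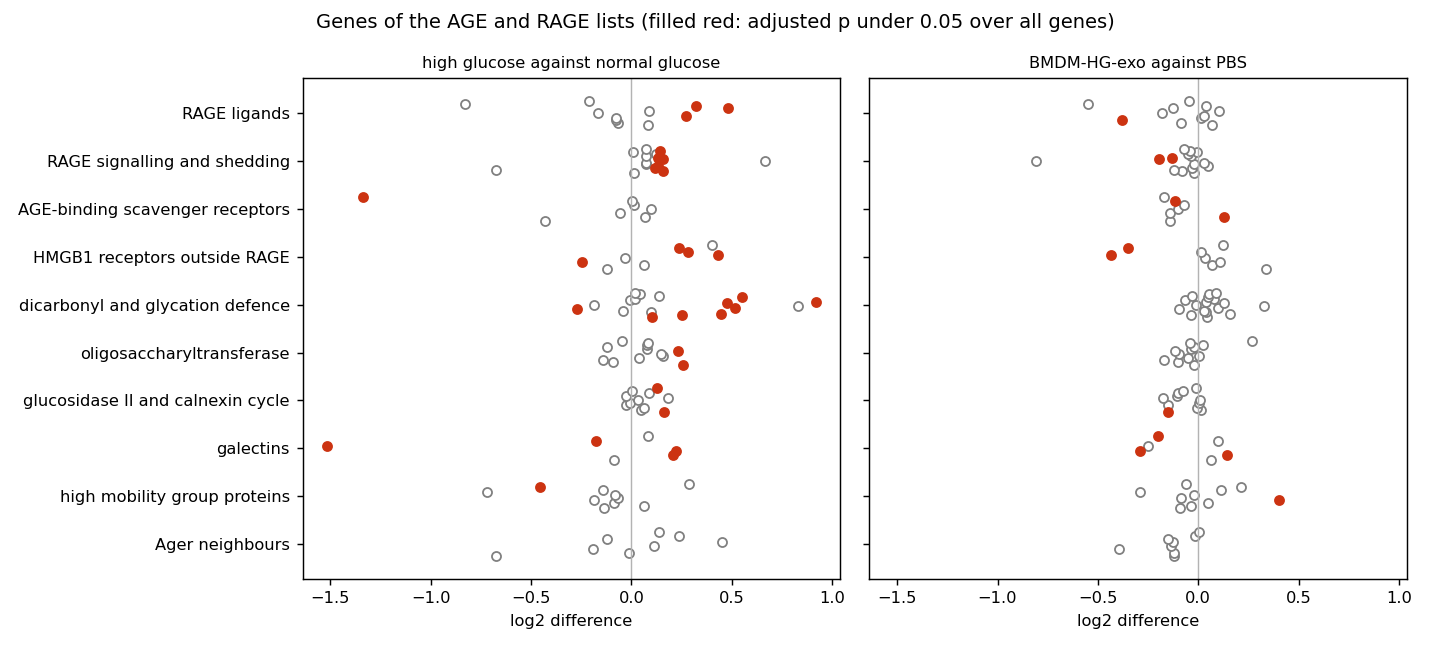
Log2 differences of the genes on 10 lists around AGEs and RAGE, in high against normal glucose and in BMDM-HG-exo against PBS. Each point is a gene, and red points passed an adjusted p of 0.05 over all genes. In glucose 7 of 17 genes of the dicarbonyl and glycation defence list are red to the right of 0 and 1 to the left, and in the exosome comparison none is. Over all genes 13.3% were called in glucose and 5.40% in the exosome comparison.

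Macrophage markers were called beside these lists. In high glucose 4 of 8 rose and 2 fell, beside 13.3% of all genes called, with Lyz2 at 0.42, Mertk at -0.40, Cd14 at 0.39 and Csf1r at 0.35. With each exosome 5 of 8 fell against PBS, with Fcgr1 at -0.41 (BMDM-NG-exo) and -0.60 (BMDM-HG-exo). The 3 not called were Lyz2 (-0.09 with each), Cd68 (0.10 and 0.08) and Mertk (0.09 and 0.04). Over all genes 3.34% and 5.40% were called in these 2 comparisons. Among endothelial markers Vwf, already abundant with PBS at 6471 ± 230, rose by 0.31 and 0.40. The other 2 listed were not called. Kdr measured 0.07 and -0.08, and Pecam1, at a mean of only 15.0 over the libraries, -0.28 and -1.18. The part of the macrophage and endothelial markers in the results of the 6 genes was not tested.

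As a description, the 3 genes whose values followed each member most closely over the 20 libraries were sought among genes with a mean of 50 or more. For Lgals3 they were Rnh1, a ribonuclease inhibitor (Pearson r = 0.95, and 0.73 after the group means were removed), Ftl1, ferritin light chain (0.946 and 0.818), and Plxna1, a plexin (0.943 and 0.795). For Prkcsh they were Apoe, Lasp1 and Cebpa (0.887, 0.865 and 0.854, and 0.782, 0.788 and 0.703 after the group means were removed). For Ddost they were Sipa1l2, Inpp5d and Adssl1 (0.87, 0.823 and 0.812, and then 0.609, 0.431 and 0.579). Hmgb1 followed Ssr1, Add3 and Wdr90 (0.764, 0.701 and 0.70, and 0.514, 0.698 and 0.45 after the group means were removed). Glo1 followed Vps16, B4galt3 and Gm36445 (0.758, 0.742 and 0.68, and then 0.779, 0.769 and 0.777). Ager followed Poli, Ttc19 and Rbm15 (0.846, 0.764 and 0.749, and then 0.916, 0.714 and 0.807). The libraries share 2 experiments and their groups, so these values have no p. Among the 6 genes themselves the highest r over all libraries was that of Ddost with Prkcsh, at 0.67, and 0.303 after the group means were removed. After that removal the highest was Ddost with Hmgb1, at 0.559, which had 0.116 over all libraries.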

How the data were processed

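RNA of 20 libraries of mouse BMDM was analysed, grouped by the treatment and title on the labels. Per the study's methods, the authors made stranded total RNA libraries depleted of ribosomal cDNA, trimmed and quality filtered the reads, aligned them to GRCm38 (STAR), assigned them to genes on the sense strand (featureCounts) and scaled the gene counts by DESeq2 size factors. The deposited signal is thus a normalized count, and the annotation used for counting is not given in the sources used here. Whole reads were recovered by dividing by the smallest step in each column (100% whole within 0.01 reads). For PBS 4 and BMDM-HG-exo 1 this step was near 1, so the scaling cannot be read from these columns alone. Reads per library ran from 34016445 to 56310712 (median 43311931), and the faintest listed gene had a median of 11 reads, below which genes were not analysed here. Same-group libraries differed by a chi-square per degree of freedom of at least 5.23, so none was a copy. Names and positions came from GENCODE M21 (14421 of 14456 genes) and promoters from RefSeq.

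After adding 1 to the normalized counts, log2 values were compared by limma 3.58.1 (R 4.3.3, eBayes with trend), for genes whose mean was 10 or more, with Benjamini-Hochberg adjustment over all genes and a threshold of 0.05. The 8 glucose and 12 exosome libraries were fitted separately, and BMDM-HG-exo was also set against the 8 controls in a fit of its own. Named list genes were the called ones, up to 4 per list and comparison by size. The 6 genes, the lists and the tests were chosen with earlier results of these data known. Alternatives varied the pseudocount, filter, scaling, trend and tool (edgeR 4.0.16 and DESeq2 1.42.0 on recovered reads), left out each library, and added a block. Exosome libraries are paired by the labelled date. Deviations of same-date libraries from their group means correlated at a mean of 0.0118 (12 pairs) against -0.0039 (36 pairs). Removing the group means ties the second value to the first, so the other pairs are not an independent reference. Tables and figures used Python 3.11.15, pandas 2.3.3, numpy 2.4.6 and matplotlib 3.10.9.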

Additional observations from a re-analysis of the deposited data

How the results depend on the processing

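Of 636 alternative values of the 6 genes, 633 kept their side of the threshold, 3 lost a call and none that was called changed sign, while 25 that were called neither way changed sign, among them Ager with BMDM-NG-exo against PBS, from -0.27 to 0.36 on leaving out 1 library. The 3 lost calls were those of Lgals3. Without the trend no member was called in high against normal glucose or in BMDM-HG-exo against PBS (0 in each), which also cut the calls over all genes from 1914 to 654 and from 779 to 296. With the replicate block on library number in glucose 0 members were called, at 0.15 for Lgals3 (adjusted p = 0.113), and 788 genes in all. Only numbers 1 and 6 occur in both glucose groups, so this paired fit rests on 2 pairs. The deviations of these pairs from their group means correlated at 0.0084, against -0.0012 for 14 others, a value that removing the group means ties to the first. The libraries share only a number. With the replicate block on date, no call of a member changed, and Lgals3 with BMDM-HG-exo against PBS had an adjusted p of 0.000227. Leaving out 1 library kept every call of Lgals3, from 0.17 to 0.23 in glucose and from 0.12 to 0.17 for BMDM-HG-exo against PBS. Of 65 calls of list genes 27 held in every alternative and none changed sign. Members included, 38 calls were lost without the trend, 18 with the block and 13 with quantile normalization.

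Over all genes, calls between the exosomes numbered 2, 28 by DESeq2 and 25 with the block, and against both controls 29, 159 by DESeq2 and 1 without the trend. Leaving out 1 library gave 1 (without BMDM-HG-exo 1) to 217 (without BMDM-NG-exo 3) against both controls, 1 to 7 (without BMDM-NG-exo 1) between the exosomes, 308 (without BMDM-NG-exo 3) to 514 for BMDM-NG-exo against PBS, 586 to 815 for BMDM-HG-exo against PBS and 1370 to 2027 in glucose. Against both controls the count also moved by over 1.5 times without PBS 1 (14), 2 (12), 3 (17) or 4 (11), BMDM-NG-exo 1 (100) or 2 (51), or BMDM-HG-exo 2 (7), 3 (8) or 4 (45). BMDM-NG-exo against PBS had 481, and 95 without the trend. Quantile normalization moved the share of calls that were higher from 58.3% to 47.5% in glucose and from 34.5% to 52.4% against both controls. A mean of at least 50 left out Ager, so that it has no value there. Its 9 to 55 reads per library limit what can be seen.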
